A study of Mus musculus with 2 samples.

Results

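The genes that write, copy, oxidise and remove cytosine methylation were examined for candidate 5-formylcytosine (5fC) in cultured mouse embryonic stem cells, which are pluripotent. They are the DNA methyltransferase genes Dnmt1, Dnmt3a, Dnmt3b and Dnmt3l, the oxidase genes Tet1, Tet2 and Tet3, the 5fC-excising glycosylase gene Tdg, and Uhrf1 and Uhrf2, whose products bind hemimethylated DNA. These 10 genes were chosen by name from 21887 protein-coding genes, and a called cytosine was counted for a gene when it lay between the gene's RefSeq start and end or within 2 kb on either side, in any sequence context and on either strand. Of the 46677 positions called in either library of the series, 21 fell in these genes. The data are of DNA and say nothing about how strongly the genes were expressed.

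Cytosine methylation is laid down by DNMT3A and DNMT3B, with DNMT3L as a catalytically inactive partner, and is copied to the new strand after replication by DNMT1, which UHRF1 recruits to hemimethylated sites. The TET enzymes oxidise 5-methylcytosine stepwise to 5-hydroxymethylcytosine, 5fC and 5-carboxylcytosine. TDG cuts out 5fC and 5-carboxylcytosine, and base excision repair then restores plain cytosine. Embryonic stem cells express most of this machinery, and TDG keeps 5fC rare in them.

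The series holds 2 libraries of 1 group, replicates 1 and 2, from embryonic stem cells. The labels name no strain, genotype or treatment, and there is no control library, so the only comparisons are between libraries and between genes. In CLED-seq, the method used, 5fC on sheared genomic DNA is tagged with biotin and the fragments are pulled down. The deaminase A3A then converts cytosines that carry no tag, and a C that survives in the reads marks a candidate 5fC. Called cytosines numbered 28569 in replicate 1 and 29650 in replicate 2, each with at least 30 reads. Their depths add up to 1039807 and 1078502 reads, which is not the depth of the libraries. The level of a site is the share of its reads that kept the C, among captured fragments. A cytosine that A3A failed to convert cannot be told apart from a tagged 5fC here, so each call, in or outside CG, is a candidate. Counting error is given as a 95% Wilson interval, in which PCR copies are treated as if they were separate molecules. Uncalled and uncovered cytosines are not listed, so a gene with no called site cannot be told apart from a gene with too few reads.

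Called cytosines were found in 7 of the 10 genes, and Dnmt3a alone held about as many as the rest together. In replicate 1, 12 sites lay in 7 genes, and in replicate 2, 14 sites lay in 5 genes. Dnmt3a held 6 of them in replicate 1 and 7 in replicate 2. Dnmt3l held 1 and 3 sites, Tet1 1 and 1, Tet2 1 and 1, and Tet3 1 and 2. Dnmt3b and Tdg each held 1 site in replicate 1 and 0 in replicate 2. No site was called in Dnmt1, Uhrf1 or Uhrf2 in either library. All 21 positions lay inside the gene spans, and 0 lay in the 2 kb flanks. Exons and introns could not be told apart, since only gene starts and ends were used.

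**Figure D1:**
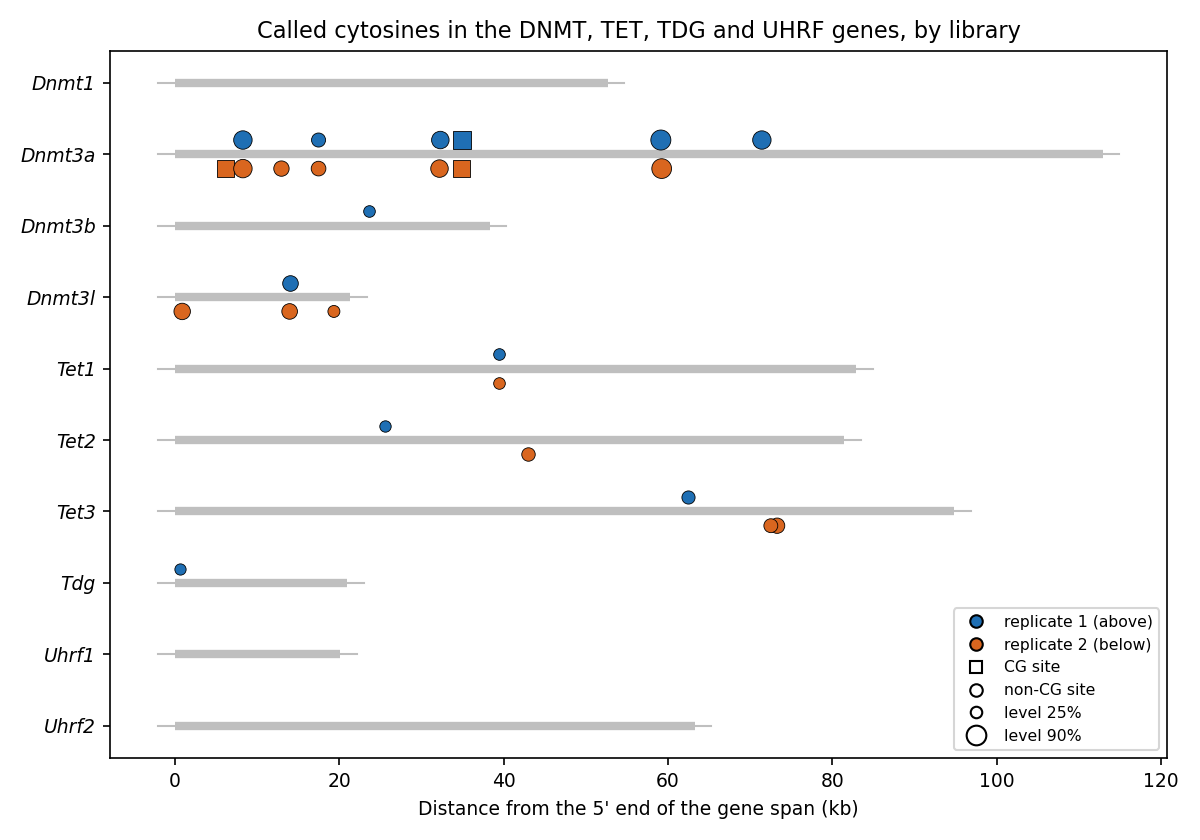
Called cytosines along each of the 10 genes, plotted as distance in kb from the 5′ end of the gene span, with replicate 1 above and replicate 2 below the gene; thick grey bars are gene spans, thin lines the 2 kb flanks, squares CG sites, circles other sites, and marker area grows with the level. Dnmt3a carries 6 and 7 sites along the first part of its span, while Dnmt1, Uhrf1 and Uhrf2 carry none.

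As a group the genes held sites about as often as other genes of their size. A site was called in 7 of the 10 genes in replicate 1, against 39.4% of all protein-coding genes and 51.2% of the 7921 protein-coding genes between 20150 and 112885 bp long, the range of the 10. In replicate 2 it was 5 of 10, against 40.3% and 52.5%. A site at the same position in both libraries was found in 3 of the 10, Dnmt3a, Dnmt3l and Tet1, against 22.2% of all protein-coding genes and 28.2% of those in the length range. The gene windows together span 628.853 kb and held 3.34 distinct sites per 100 kb, against 2.93 in protein-coding genes of that length range and 2.15 in the other 9 genes without Dnmt3a. With 10 genes these shares are known only roughly, and no test of the list was made.

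Dnmt3a, on chromosome 12 from 3801559 to 3914443, encodes a de novo methyltransferase and is the longest of the 10 genes at 112.885 kb. It held 10 distinct called positions, where the median was 2 among 1374 protein-coding genes within 25% of its length. Of those genes, 2.26% had as many distinct positions or more. Counted per library, 4.15% had at least as many sites as its 6 in replicate 1, and 1.60% at least as many as its 7 in replicate 2. Neither count exceeded the 99th percentile of its length bin, 7 sites in each library. Dnmt3a was singled out from the 10 genes by this same count, so these shares are descriptions and no test. Its 10 positions include 2 pairs of near-equal counts, given below. The sites of Dnmt3a all lay within the first 71430 bp of the span.

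**Figure D2:**
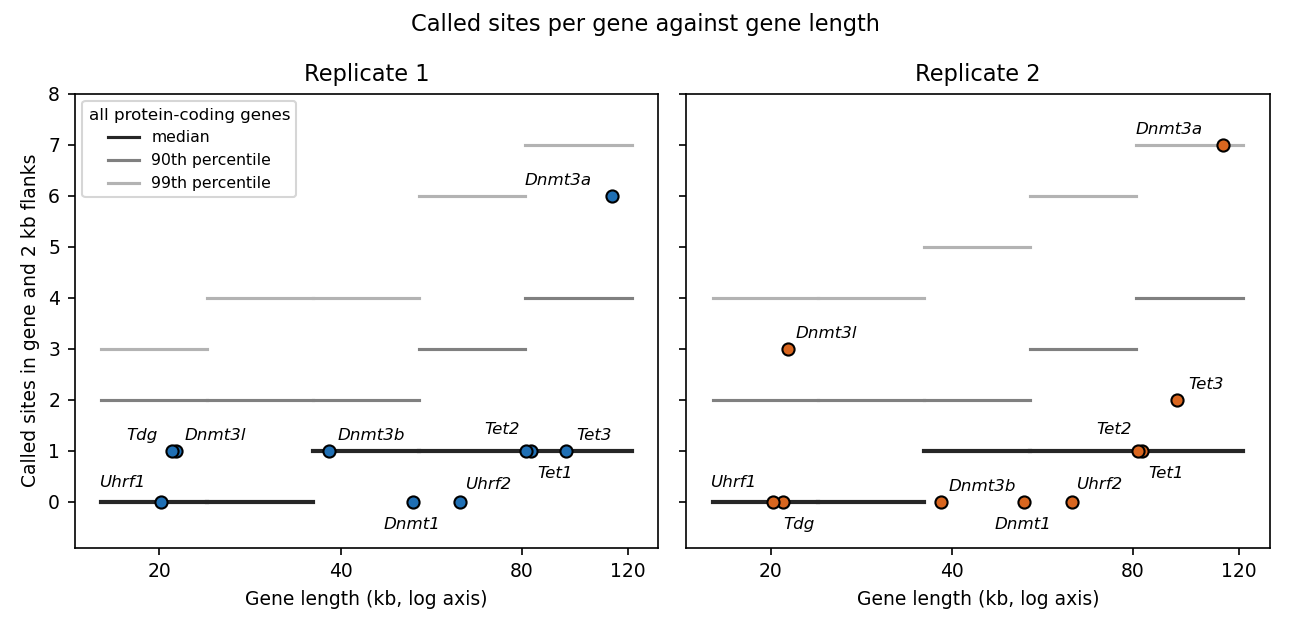
Number of called sites in the gene and its 2 kb flanks (vertical axis) against gene length in kb (log axis), for each library; coloured points are the 10 genes and horizontal lines the median, 90th and 99th percentile of all protein-coding genes in that length bin. Dnmt3a, with 6 and 7 sites, lies above the 90th percentile of its bin, 4 sites, in both libraries, and Dnmt3l, with 3 sites in replicate 2, above that of its bin, 2 sites, in that library only. The Dnmt3l count includes position 78043178, which also lies in the neighbouring gene Aire.

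No call fell at a transcript start of these genes. RefSeq start windows (250 bases before to 50 after a transcript start, GRCm38.p6) were matched for all 10 genes, 17 windows in all. They held between 2 and 57 CG dinucleotides (the letters CG, which read the same on both strands), with a median of 22, against a median of 7 over all 32851 windows. None of the 17 held a called cytosine of any context in either library. Across all windows 2.73% held one, and 6.80% did among the 7588 windows with at least 22 CG, so a count of 0 in 17 windows is near the background. The part of the first window that lies outside the gene span is printed for 3 genes, 5′ to 3′ on the gene's strand and ending at the base before the span, with CG in capitals, to show how CG-rich or CG-poor these uncalled stretches are: Tdg (chr10:82629588-82629813, plus strand), a gene with a called site 606 bp downstream of its start, and Uhrf1 (chr17:56303087-56303336, plus strand) and Dnmt1 (chr9:20959889-20960138, minus strand), genes with none.
Tdg: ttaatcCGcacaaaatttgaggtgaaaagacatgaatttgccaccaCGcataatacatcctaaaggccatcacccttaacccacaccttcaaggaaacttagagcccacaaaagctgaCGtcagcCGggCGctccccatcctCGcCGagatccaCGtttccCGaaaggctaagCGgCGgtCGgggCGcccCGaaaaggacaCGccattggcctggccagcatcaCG
Uhrf1: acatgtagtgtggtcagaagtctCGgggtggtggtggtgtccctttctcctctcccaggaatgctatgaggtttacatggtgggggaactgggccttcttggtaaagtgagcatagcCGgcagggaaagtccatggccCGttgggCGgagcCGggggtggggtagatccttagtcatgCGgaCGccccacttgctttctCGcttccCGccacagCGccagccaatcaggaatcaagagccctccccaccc
Dnmt1: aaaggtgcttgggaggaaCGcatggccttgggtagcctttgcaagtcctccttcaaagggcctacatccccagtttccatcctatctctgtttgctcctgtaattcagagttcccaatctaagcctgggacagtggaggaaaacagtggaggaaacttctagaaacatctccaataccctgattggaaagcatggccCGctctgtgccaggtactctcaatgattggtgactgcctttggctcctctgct

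The stretch of Tdg held 16 CG in 226 bases, that of Uhrf1 10 in 250 and that of Dnmt1 2 in 250. As many CG as in the Uhrf1 stretch, or more, were found in 37.8% of all stretches of 250 bases before a start, and as many as in the Dnmt1 stretch in 81.2%. Dnmt1 has 2 further listed starts inside its span, whose windows held 12 and 33 CG. Uhrf1 also has a further listed start inside its span, whose window held 33 CG. The nearest calls to any listed start of the 10 genes lay downstream of it, at 568 bp in Dnmt3a, 606 bp in Tdg, and 891 and 919 bp in Dnmt3l.

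Among the methyltransferase genes, Dnmt3a carried the highest levels. The site at chromosome 12 position 3809839 (minus strand, CAA) kept the C in 25 of 32 reads in replicate 1 and 25 of 32 in replicate 2, a level of 78.1% in both (61.2 to 89.0%). The CG site at position 3836458 (plus strand, CGG) kept it in 22 of 31 reads in both, a level of 71.0% (53.4 to 83.9%). It is the only CG site called in both libraries in the 10 genes. For comparison, 3.16% of all protein-coding genes held a shared CG site, and 3.62% of those in the length range.

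The third shared site of Dnmt3a, at position 3819044 (plus strand, CTG), kept the C in 27 of 65 reads in replicate 1 and 18 of 39 in replicate 2. Its levels were 41.5% (30.4 to 53.7%) and 46.2% (31.6 to 61.4%), so the intervals overlap. This was the deepest call in the 10 genes in replicate 1 and the lowest level in Dnmt3a in either library.

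The other 7 positions of Dnmt3a were each called in 1 library. A second CG site, at position 3807728 (minus strand, CGC), was called in replicate 2 alone, with 24 of 39 reads (61.5%, 45.9 to 75.1%). It lies 568 bp downstream of a listed transcript start. Replicate 2 alone also listed position 3814529 (CAT), with 18 of 35 reads, and replicate 1 alone position 3872989 (CCC), with 31 of 40 reads (77.5%).

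The remaining 4 positions of Dnmt3a form 2 pairs, in which each library listed 1 position of nearly the same counts. Replicate 1 listed position 3833863 (plus strand, CTT) with 25 of 36 reads, and replicate 2 listed position 3833761 (plus strand, CTG), 102 bp away, also with 25 of 36. Replicate 1 listed position 3860695 (plus strand, CCC) with 30 of 32 reads (93.8%), and replicate 2 listed position 3860796 (minus strand, CTG), 101 bp away, with 29 of 32 (90.6%). The latter pair holds the highest level of each library in the 10 genes, and both of its positions also lie in Dnmt3aos, the antisense long noncoding RNA gene within Dnmt3a. With these pairs counted as the same signal, 5 of the 6 replicate 1 sites in Dnmt3a had a counterpart in replicate 2. Such pairs are common in these libraries: of 17027 sites listed by replicate 1 alone, 20.8% had a site within 120 bp that replicate 2 alone listed with both counts within 1 read, and 54.7% of the pairs were on the same strand. Their origin was not tested, nor was whether the 2 positions of a pair are 1 signal. If they are, which of the listed contexts applies is not known.

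Dnmt3l, on chromosome 10 from 78042287 to 78063622, is among the shortest of the 10 genes at 21.336 kb. Its shared site at position 78056254 (minus strand, CCC) kept the C in 23 of 43 reads in both libraries, a level of 53.5% (38.9 to 67.5%). Replicate 2 alone listed position 78043178 (minus strand, CTC) with 32 of 53 reads (60.4%, 46.9 to 72.4%) and position 78061639 (CTA) with 10 of 36 (27.8%, 15.8 to 44.0%). The former also lies in Aire, the neighbouring gene of the autoimmune regulator, so it cannot be assigned to Dnmt3l alone. Dnmt3b, the other de novo methyltransferase gene (chromosome 2, 153649411 to 153687730), had a single call, in replicate 1, at position 153673058 (CCA) with 8 of 31 reads, a level of 25.8% (13.7 to 43.2%).

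The 3 TET genes held 6 distinct positions, none of them CG, and with 1 or 2 sites per library each was at or just above the median of 1 for protein-coding genes in their length bin, which starts at 81 kb. Tet1, on chromosome 10 from 62804570 to 62887469, had the single shared site of the family, at position 62848077 (minus strand, CTT). It kept the C in 16 of 62 reads in replicate 1 and 8 of 31 in replicate 2, a level of 25.8% in both (16.6 to 37.9% and 13.7 to 43.2%). The authors' adjusted p in replicate 2 was 0.0118 (Benjamini-Hochberg), and their Holm value was 1 in both libraries. At an adjusted p under 0.01, or with Holm, Tet1 therefore had no shared site and 2 genes in place of 3 held one. The depth in replicate 1 was exactly 2.00 times that in replicate 2, and so was each count.

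Tet2 (chromosome 3, 133463677 to 133545136) had a different site in each library. Replicate 1 listed position 133519519 (CAC) with 9 of 37 reads (24.3%, 13.4 to 40.1%), and replicate 2 listed position 133502134 (CTG) with 18 of 48 (37.5%, 25.2 to 51.6%). Tet3 (chromosome 6, 83362373 to 83457208) likewise shared no position. Its calls were 11 of 31 reads at 83394721 (CCC; 35.5%) in replicate 1, and 19 of 37 at 83383925 (CCA; 51.4%) and 15 of 37 at 83384689 (CAC; 40.5%) in replicate 2. The calls of Tet2 and Tet3 had no near-equal counterpart within 120 bp in the other library.

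Tdg, on chromosome 10 from 82629814 to 82650799, had 1 call, in replicate 1 alone. It lies at position 82630444 (plus strand, CAA), 606 bp downstream of the listed start, and kept the C in 8 of 34 reads, a level of 23.5% (12.437 to 39.996%). This is the lowest level and the weakest call of the 10 genes in that library, with a Benjamini-Hochberg adjusted p of 0.0194 in the authors' deposited table (binomial, across all cytosines the authors tested). The authors' p-values matched the binomial probability of exactly the kept count, which is smaller than that of the kept count or more. For the Tdg call these binomial values were 0.00149 and 0.00188. The same holds for the adjusted p-values quoted here, which derive from the authors' p. The background rate behind the authors' p-values, recovered from those values, was 6.93% in both libraries, and each listed site was selected for exceeding it.

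No call fell in the genes of DNMT1 and its recruiter. The nearest called cytosine to Dnmt1 (chromosome 9, 20907206 to 20959888) lay 3216 bp from its span at position 20963104, with 11 of 32 and 11 of 33 reads. The nearest to Uhrf1 (chromosome 17, 56303337 to 56323486) lay 2620 bp from its span, upstream of its start, at position 56300717 (CCT), with 31 of 37 reads in both libraries, a level of 83.8%. Both were thus called in both libraries, just outside the 2 kb flank, and with flanks of 5 kb 5 genes in place of 3 held a shared site. The nearest position outside the window of Tet3 lay 3506 bp from its span and was called in replicate 2 alone (21 of 35 reads, 60%). The nearest to Uhrf2 (chromosome 19, 30030430 to 30093726) lay 19768 bp away, in replicate 2 alone. Among protein-coding genes from 16 to 24 kb long, which include Uhrf1, 51.4% held no called site in either library, and of those from 54 to 81 kb, which include Uhrf2, 30.0% held none. Dnmt1, at 52.683 kb, falls in the bin from 36 to 54 kb, where 36.5% held none.

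**Figure D3:**
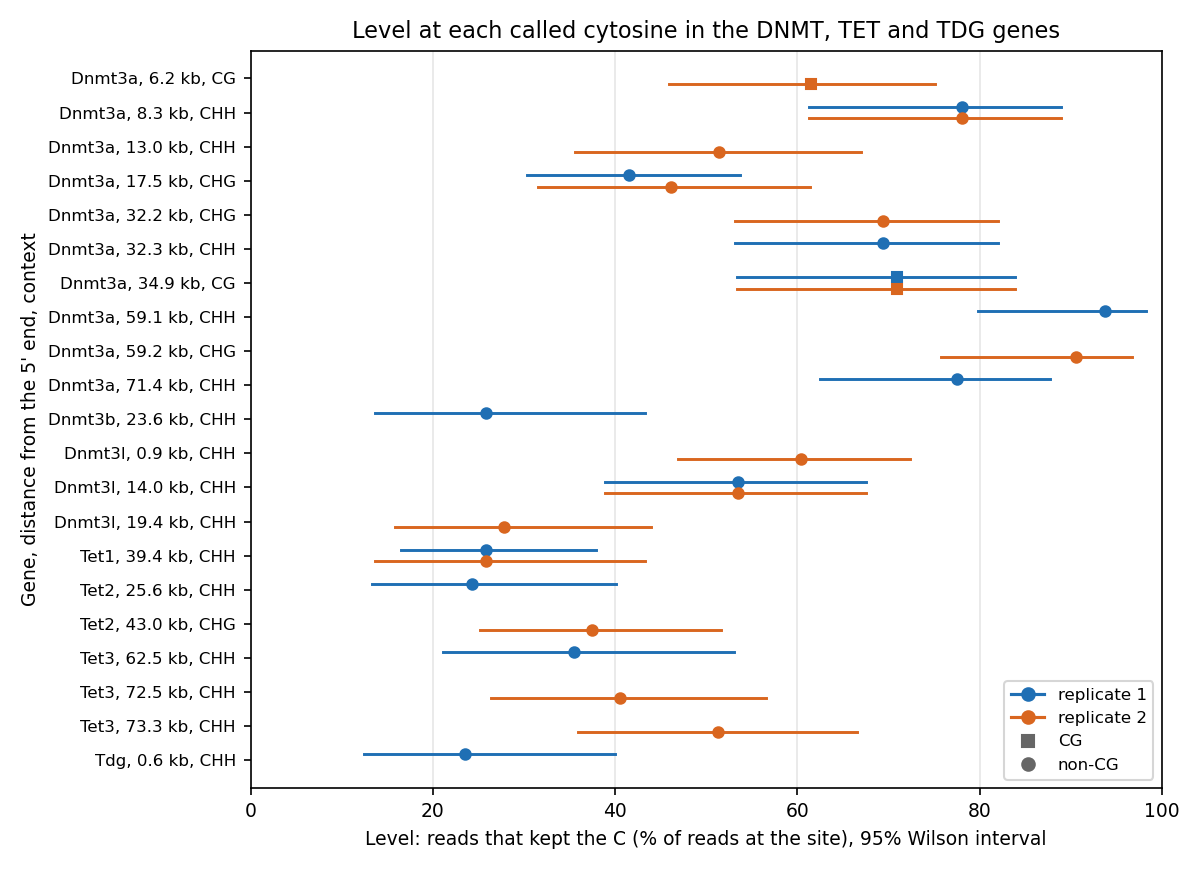
Level at each of the 21 called positions (horizontal axis, percent of reads that kept the C, with 95% Wilson intervals), in order of gene and distance from the 5′ end; blue is replicate 1, orange replicate 2, squares CG and circles other contexts. Dnmt3a calls lie between 41.5% and 93.8%, and the calls of Tet1, Tet2, Tet3, Tdg, Dnmt3b and Dnmt3l between 23.5% and 60.4%.

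Over all calls in the 10 genes, the library medians of the level were 47.5% and 52.5%, against 46.7% and 46.2% for all listed sites. The genes were not alike in this. The 6 and 7 sites in Dnmt3a had a median of 74.2% in replicate 1 and 69.4% in replicate 2, and the 6 and 7 sites in the other genes 25.8% and 40.5%. Of all listed sites in the series, 26.0% reached the median of Dnmt3a in replicate 1 and 29.3% in replicate 2. The levels overlapped in both libraries. In replicate 1 the lowest Dnmt3a site was at 41.5% and the highest site elsewhere at 53.5%, in Dnmt3l. In replicate 2 the overlap took in more sites, with Dnmt3a at 46.2% and 51.4%, Tet3 at 51.4% and Dnmt3l at 53.5% and 60.4%. These contrasts were noticed in the data, the sites of a gene are not replicates, and no test was made.

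By context, 2 of the 21 positions were CG, 4 were CHG and 15 were CHH, where H is any base but G. In replicate 1, 1 of 12 sites was CG, against 8.01% of all listed sites, and in replicate 2, 2 of 14, against 8.20%. Both CG positions lay in Dnmt3a. CHG sites numbered 1 and 4, where 24.7% and 24.2% of all listed sites were CHG. CHH sites numbered 10 and 8, where 67.3% and 67.6% of all listed sites were CHH. The most frequent trinucleotides were CTG and CCC, with 4 positions each. Of the 21 positions, 12 were on the coding strand of their gene and 9 on the other. Shares of each trinucleotide and strand over all listed sites are not given here, so these counts show no preference. Across the series, 875 listed sites lay in a RefSeq start window, and the listed trinucleotide matched the GRCm38 sequence at 875 of them.

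The 5 positions called in both libraries were compared between them. Fisher's exact test, run on all 11542 shared sites (two-sided, Benjamini-Hochberg), found 0.0260% of them to differ at an adjusted p under 0.05. Of the 5, 0 differed, 0 had an unadjusted p under 0.05, and the adjusted p was 1 at each. The largest shift was 4.62 points, at position 3819044 in Dnmt3a. Counts were identical in both libraries at 3 of the 5, and at 70.6% of all shared sites, and only 27 of the 11542 had an unadjusted p under 0.05. Fisher's test took the reads of the 2 libraries as separate samples, which such alike counts do not bear out. The likeness of the libraries is therefore no independent check, and the lack of a difference at the 5 sites says little. Shared positions made up 5 of the 12 sites in replicate 1 and 5 of the 14 in replicate 2 (41.7% and 35.7%, against 40.4% and 38.9% of all sites).

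The wider pathway was described from a list of 45 further genes. A site was called in 17 of them in replicate 1 and 18 in replicate 2, and 11 held a shared position, shares near those of all protein-coding genes given above (39.4%, 40.3% and 22.2%). None of the 13 shared positions was CG, so 0 of the 45 genes held a shared CG site. Only 3.16% of all protein-coding genes held one, so a count of 0 is near the background. In 25 of the 45 genes no call fell in either library. These genes were shorter, with a median length of 18.115 kb. Of all protein-coding genes from 16 to 24 kb long, the bin of that median, 51.4% held none, a like share.

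The base excision repair list holds genes that act after TDG has cut and also other glycosylase genes, such as Ung. For it and the lists below, the like share over all protein-coding genes was 22.2%, and lists this short give only rough shares. Here 3 of 12 genes held shared positions. Parp1, a poly(ADP-ribose) polymerase gene, held 2, with levels of 23.3% and 64.1% in replicate 1 and 25.8% and 62.5% in replicate 2. Ung, the uracil glycosylase gene, held 2 in 8.956 kb, at 54.1% and 33.3% in both libraries. Xrcc1, which encodes a repair scaffold, held 1, at 73.9% and 81.6%. The glycosylase genes Smug1 and Mbd4, and Apex1 and Lig3, held calls but none at a shared position. No call fell in the other 5 of the 12, the glycosylase genes Neil1, Neil2, Neil3 and Nthl1 and the polymerase gene Polb, beside 25 of 45 in the whole list. The repair genes without a shared position fell outside the rule for named genes.

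Of the TET partners and cofactor genes, 3 of 10 held a shared position. Cxxc5, whose product contains a CXXC domain like that of TET1, held the most highly retained of these, at 91.7% and 94.3%. D2hgdh, whose product removes a metabolite that inhibits TET enzymes, was at 42.5% and 41.0%. The position counted for Idh2 lay in its flank, at 25.8% (8 of 31 reads) and 43.9% (18 of 41), an 18.1-point gap that did not pass Fisher's exact test (p = 0.141, adjusted p = 1).

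Partners of the DNMT enzymes and UHRF1 held shared positions in 3 of 8 genes, beside 22.2% of all protein-coding genes. They were the histone methyltransferase gene Ehmt2 at 77.4% in both libraries, Nsd1 at 25% in both and the chromatin regulator Smchd1 at 64.6% and 66.7%. At 108.544 and 130.878 kb, Nsd1 and Smchd1 were long genes, and longer genes more often held a called site. Among the deaminase and GADD45 genes 1 of 7 held one, in the flank of Gadd45g, where all 31 and all 32 reads kept the C (lower bound 89.0% in replicate 1). Among the readers of methylated DNA 1 of 8 held one, the zinc finger gene Zbtb4, which fell outside the rule for named genes and was named after its values were seen.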

How the data were processed

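For each listed cytosine the authors deposited, per the file headers, raw counts of reads that kept or lost the C and their sum, with a p-value and 2 adjusted forms of it, Benjamini-Hochberg and Holm. Each listed site had at least 30 reads and an adjusted p under 0.05. The submitters' processing notes give mm10 as the build and Bismark 0.23.1 with Bowtie2 2.4.5, SAMtools, FastQC 0.11.9 and cutadapt 4.1 as tools. Their roles, duplicate removal and pooling are not given in the sources used here. No label says that the replicates came from separate cultures.

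Gene spans came from a RefSeq table of GRCm38, the build of mm10, and strand and starts from RefSeq start windows. All 10 genes matched, as did the 45 pathway genes. A shared site has the same chromosome, position and strand in both libraries. Levels are kept reads over depth, with 95% Wilson intervals. At a median depth of 34 reads they are imprecise. Fisher's exact test was run over all shared sites and tested on simulated data. The simulated libraries were drawn independently, unlike the alike counts of the real ones, so the simulation does not show how the test behaves here. Gene length shares and ranges are descriptions.

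The members and lists were chosen with earlier results of these data known. Each site in the 10 genes is reported. Pathway genes with a shared site are named up to 10, by number of shared sites and then symbol. Zbtb4 and the repair genes without a shared site are named besides. Python 3.11.15, numpy 2.4.6, pandas 2.3.3, scipy 1.17.1 and matplotlib 3.10.9 were used.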

Additional observations from a re-analysis of the deposited data

How the results depend on the processing

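Of 37 alternatives, 24 left a count within 1.5 times of its value or the median level within 3.50 points (the SD of both libraries, a yardstick only), and 13 moved it. The values reported were a mean of 13 sites per library, 5 shared sites, 3 genes with a shared site and a mean library median of 50.0%. With flanks of 5 kb, 5 genes held a shared site, and 2 did at an adjusted p under 0.01 or with Holm adjustment. The median level was 57.5% at an adjusted p under 0.01 and 64.0% with Holm adjustment, settings that drop low levels by their construction. A depth of at least 40 left 3.5 sites per library, 1 shared site and 1 gene. CG sites alone left 1.5 per library, 1 shared site, 1 gene and a median level of 68.6%. Without Dnmt3a, an alternative chosen after seeing the data, 6.5 sites per library and 2 shared sites remained, and the median level was 33.2%. Leaving out each library in turn gave 12 to 14 sites and median levels of 47.5 to 52.5%. No paired analysis was possible because the series has 1 group. Uncalled cytosines are not listed, so depth limits which genes can show a site at all.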
